A study of Mus musculus with 6 samples.

Results

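The Notch pathway genes described here are the receptors Notch1, Notch2 and Notch3, the ligands Jag1 and Dll4, the transcriptional repressors Hey1, Hey2, Heyl and Hes1, and Nrarp. These 10 genes were listed by symbol and matched to Ensembl identifiers among the 43629 genes counted in each library. RNA-Seq was performed on primary cardiomyocytes from CD-1 mouse heart ventricles at embryonic day 13.5, transfected with siRNA at 12 nM, either negative siRNA or DNMT1 siRNA, and collected at 72 h (n = 3 per treatment). Ventricles of a litter were pooled, the cultures were enriched for cardiomyocytes by differential attachment, and the cells were sorted magnetically on VCAM1 before RNA isolation. The DNMT1 siRNA was a mixture of several siRNAs against the same mRNA. The labels number the samples but do not say whether they came from separate litters, so that p-values measure the spread between these samples only. For the 3 libraries titled DNMT1, the treatment tag reads DNMT3a siRNA. Their Dnmt1 level fell to 24.5% of that with negative siRNA (adjusted p = 0.000192, edgeR quasi-likelihood test), and Dnmt3a stood at 118% (adjusted p = 0.0919).

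Notch receptors are activated by ligands on neighbouring cells. Proteases then release the intracellular domain of the receptor, which enters the nucleus and joins the DNA-binding protein RBPJ and a Mastermind coactivator to switch on genes such as the HEY and HES repressors. In the developing heart the pathway is best known in endocardium and vascular endothelium, where Dll4 and Notch1 act in trabeculation and valve formation, in mural cells, where Notch3 and Heyl are expressed, and in compact ventricular myocardium, which is marked by Hey2. Nrarp is a target of the pathway that dampens it.

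DNMT1 maintains methylation of CpG sites at cell division, and the RefSeq promoter table (GRCm38.p6) held a promoter for 7 of the 10 genes, with Hey1, Heyl and Hes1 missing. In the 250 bases before the RefSeq start site, the 7 promoters had between 14 CpG sites (Dll4) and 34 CpG sites (Notch2). The median over 32851 mouse promoters was 6. RefSeq start sites can differ from the gene ends given below, which come from another annotation. The Notch1 window, chr2:26503823-26504072, lay inside the gene as placed below. The windows of Jag1, Notch2 and Hey2 crossed the 5′ ends given below. The RBPJ core letters TGGGAA were searched on both strands in the same windows. Hey2 was the only one of the 7 with a match, which lay on the reverse strand 204 bases before the start site and was part of the longer letters GTGGGAA. Of all promoters, 21.6% held TGGGAA and 5.42% held GTGGGAA, which contains it. The windows of Hey2 and Nrarp, genes known as targets of the pathway, are shown from 250 to 51 bases before the start site, 5′ to 3′ in the direction of the gene, with the match in capitals (TTCCCA is TGGGAA read from the other strand). The Hey2 stretch is chr10:30842834-30843033 on the minus strand and the Nrarp stretch is chr2:25180508-25180707 on the plus strand. No match says only that these letters are not in this window.
Hey2: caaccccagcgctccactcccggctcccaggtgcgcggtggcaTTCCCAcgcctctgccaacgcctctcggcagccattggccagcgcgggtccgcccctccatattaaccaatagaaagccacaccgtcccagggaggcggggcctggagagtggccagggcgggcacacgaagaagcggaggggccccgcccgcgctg
Nrarp: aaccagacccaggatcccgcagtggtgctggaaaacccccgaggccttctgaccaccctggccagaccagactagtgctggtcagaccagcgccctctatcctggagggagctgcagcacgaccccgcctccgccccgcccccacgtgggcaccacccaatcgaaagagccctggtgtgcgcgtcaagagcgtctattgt

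Between 27852412 and 35896018 reads per negative siRNA library and between 13739561 and 16186310 per DNMT1 siRNA library were counted on genes. Reads that mapped uniquely but fell outside annotated exons made up 16.4% ± 1.58 of the uniquely mapped reads in negative siRNA libraries and 29.3% ± 4.23 in DNMT1 siRNA libraries (SD, n = 3 each). The groups did not overlap in this share (exact permutation test, two-sided, p = 0.1, the smallest p that 3 against 3 allow). Markers of the labelled cell type were present in every library. Of the 10 cardiomyocyte markers, 8 rose past the limits given below with DNMT1 siRNA, beside 4.26% of all tested genes. Myh7 did not pass them. Vcam1, on which the cells were sorted, was lower without overlap but did not pass (log2 fold change -0.26, adjusted p = 0.148, edgeR quasi-likelihood test). Collagen mRNA of fibroblasts was abundant as well, with Col1a1 at 3542 CPM per kb (CPM, counts scaled to an equal library total, per kilobase of exon) and the cardiac actin Actc1 at 237.3 CPM per kb with negative siRNA. How depth, reads outside exons and cell makeup bear on the Notch genes was not tested. In bulk samples, fewer cells of a type and less RNA per cell cannot be told apart.

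The 10 genes spanned more than 2 orders of magnitude per exon length. In the negative siRNA cultures Notch2 averaged 21.73 CPM per kb and Hes1 21.7 CPM per kb, with ranges of 19.2 to 23.6 and 18.5 to 24.6 that did not separate them. Jag1 followed at 11.01 CPM per kb, then Notch3 at 8.161 and Notch1 at 3.746. The range of Notch3, 4.4 to 13 CPM per kb, overlapped those of both its neighbours. Heyl at 2.433 CPM per kb and Hey2 at 1.032 CPM per kb were set apart from the genes above and below them. At the bottom, Hey1 (0.2409 CPM per kb), Nrarp (0.2107) and Dll4 (0.1251) had overlapping ranges. With DNMT1 siRNA, Hey1 averaged 0.0491 CPM per kb and had the lowest mean of the 10, next to Dll4 at 0.05323 CPM per kb, whose range it overlapped. The most abundant HEY gene in these cultures was thus Heyl, and the most abundant receptor Notch2, under both treatments. Nrarp shares 2051 of its 2582 exon bases with a gene on the opposite strand, Gm38287. If strand was not used in counting, which is not given in the sources used here, reads from the shared part were not counted for Nrarp, and its level is uncertain.

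**Figure D1:**
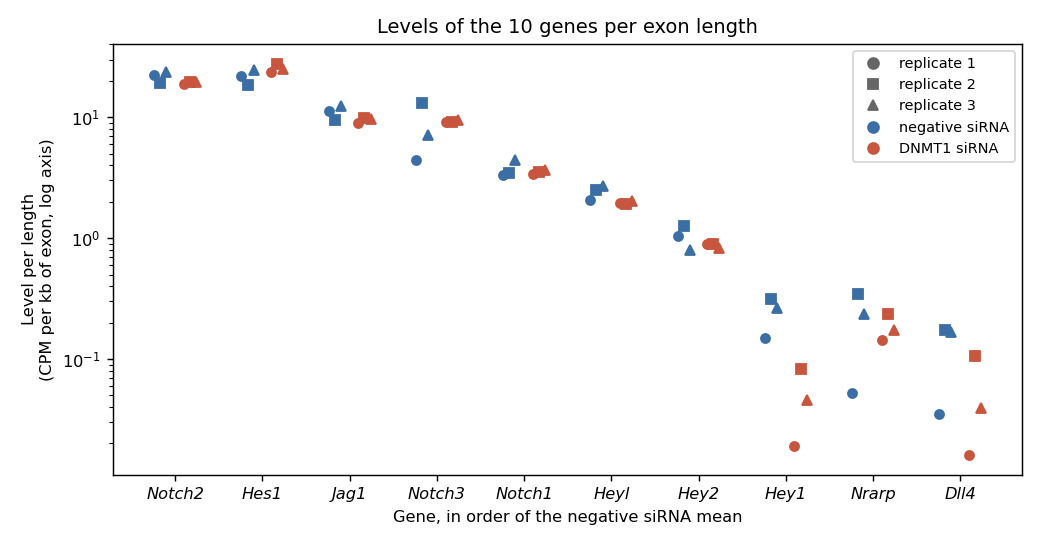
Level per exon length of each of the 10 genes in each of the 6 cultures (CPM per kb, log axis), ordered by the negative siRNA mean, with colours for treatments and shapes for replicates. Notch2 and Hes1 lie together at the top near 21.7 CPM per kb, and Hey1, Nrarp and Dll4 lie together at the bottom.

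To ask which Notch pathway genes responded to DNMT1 knockdown, all genes were tested with edgeR's quasi-likelihood test. A gene was called where its Benjamini-Hochberg adjusted p was below 0.05 and it differed by more than 1.5-fold in either direction. Of the 10 Notch genes, 9 passed the filter on low counts and Dll4 did not. Hey1 was down-regulated and the other 8 tested genes did not pass the limits. Hey1 passed the filter through the negative siRNA libraries alone: all 3 of these and 0 of the 3 DNMT1 siRNA libraries reached the level the filter asks for, so that a gene admitted in this way had to differ. Of the 15470 genes tested, 6.49% were called, 4.26% as up-regulated and 2.23% as down-regulated, so that 1 call among 9 genes is near the background. No member was called as up-regulated, by edgeR or by DESeq2. At an unadjusted p below 0.05 there were 2 genes, Hey1 and Heyl, both with a negative log2 fold change, beside 29.2% of all genes tested. The median log2 fold change was -0.17 over the 9 genes and 0 over all genes tested. Normalized counts of the treatments did not overlap for 2 of the 9, Hey1 and Heyl, both lower with DNMT1 siRNA, beside 36% of all tested genes in either direction.

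**Figure D2:**
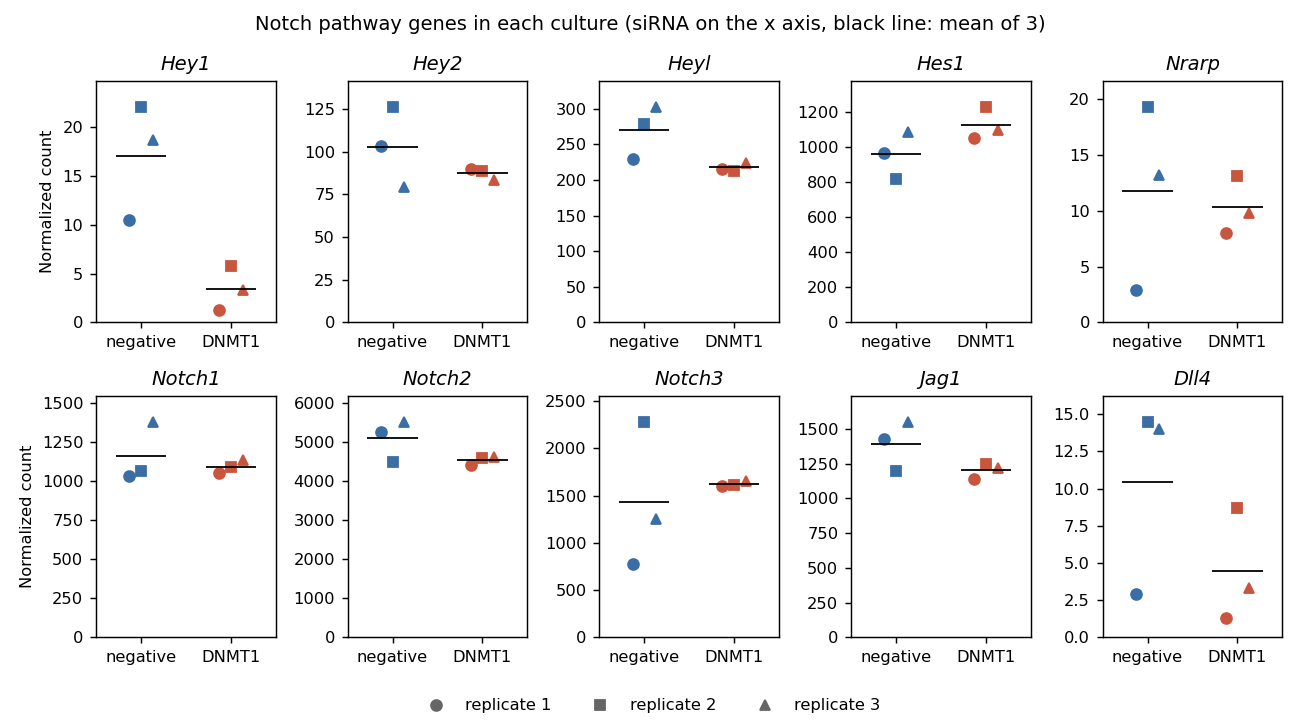
Normalized count (y axis, linear from 0) of each of the 10 genes in each culture, by siRNA (x axis), with shapes for replicates and a black line for the mean of 3. Hey1 and Heyl are separated between the treatments, and the negative siRNA cultures of Notch3 range from 772 to 2281.1.

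Hey1 (ENSMUSG00000040289, chromosome 3 of GRCm38, 8663359 to 8667256, minus strand) encodes a HEY repressor of the basic helix-loop-helix family. It was counted in 18, 32 and 24 reads in negative siRNA replicates 1 to 3, and in 1, 4 and 2 reads in DNMT1 siRNA replicates 1 to 3. Scaled to a common library size, these were 10.5, 22.1 and 18.7 normalized counts with negative siRNA and 1.3, 5.8 and 3.3 with DNMT1 siRNA. Every DNMT1 siRNA culture was below every negative siRNA culture. A gene that passed the filter through the negative siRNA libraries alone had to be separated in this way. The adjusted p values and the intervals below are therefore not separate support for the difference. The means were 17.08 ± 5.939 and 3.481 ± 2.252 normalized counts (SD, n = 3 each). The log2 fold change was -2.26 (SE 0.56, 95% interval -3.54 to -0.99, adjusted p = 0.0357, edgeR quasi-likelihood test). Summed over the cultures, 7 reads against 74 gave 20.6% of the negative siRNA level, with an exact 95% interval of 8.01 to 44.6% that covers counting error only. With DESeq2 the adjusted p of Hey1 was 0.0398. Leaving out DNMT1 siRNA replicate 1, 2 or 3 ended the call, with log2 fold changes of -1.88, -2.87 and -2.25 and adjusted p values of 0.123, 0.0864 and 0.126 (edgeR quasi-likelihood test). Hey1 was removed by the filter on low counts without negative siRNA replicate 2, without negative siRNA replicate 3, where at least 10 counts were required in every library, or when all libraries were thinned to the smallest one. Without negative siRNA replicate 1 it was called, with a log2 fold change of -2.53.

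The 3 tested genes whose mean-centred log2 CPM ran closest to that of Hey1 over the 6 libraries were Cxcl1, which encodes a chemokine, Rhbdl3, of the rhomboid protease family, and Adgre1, a surface marker of macrophages. Their root mean square differences from Hey1 were 0.27, 0.32 and 0.35 on the log2 scale. Log2 fold changes were -1.73 for Cxcl1, -1.34 for Rhbdl3 and -1.71 for Adgre1. These are the closest of 15470 tested genes over only 6 libraries, and Hey1 had 1, 4 and 2 reads in the DNMT1 siRNA libraries. Closeness found in this way is no evidence of a link, which was not tested.

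The other repressors did not follow Hey1 past the limits. Hey2 (ENSMUSG00000019789, chromosome 10, 30832359 to 30842801), which restrains atrial genes in ventricular myocardium, stood at 103.3, 126.2 and 79.3 normalized counts in the negative siRNA cultures. With DNMT1 siRNA it had 89.8, 88.9 and 83.4, inside the negative siRNA range. The log2 fold change of Hey2 was -0.24 (95% interval -0.69 to 0.22, adjusted p = 0.472, edgeR quasi-likelihood test), which leaves room for a change past the fold limit of 0.585 on the log2 scale. Heyl (ENSMUSG00000032744, chromosome 4, 123233556 to 123249875), a HEY gene of mural cells, stood at 229.9, 277.8 and 302.5 normalized counts in the negative siRNA cultures and at 215.9, 212.8 and 224.1 in the DNMT1 siRNA cultures. The groups did not overlap, but the lowest negative siRNA culture was close to the highest DNMT1 siRNA culture. The log2 fold change of Heyl was -0.31 (SE 0.13, 95% interval -0.61 to -0.01, adjusted p = 0.161, edgeR quasi-likelihood test). Like that of Hey2, this interval leaves room for a fall past the fold limit. Hes1 (ENSMUSG00000022528, chromosome 16, 30064384 to 30067796), a HES repressor that also responds to other pathways, was the only effector with a positive value. Negative siRNA replicates 1 to 3 gave 970.4, 820.3 and 1088.7 normalized counts of Hes1, and DNMT1 siRNA replicates gave 1055.3, 1231.7 and 1102.3. The groups overlapped in Hes1, and its log2 fold change was 0.24 (95% interval -0.03 to 0.5, adjusted p = 0.214, edgeR quasi-likelihood test).

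Ratios within the HEY family moved with the reads of Hey1. Hey2 per length was 3.02 to 6.99 times Hey1 in the negative siRNA cultures and 10.8 to 47.6 times in the DNMT1 siRNA cultures. Heyl per length was 8.04 to 14 times Hey1 with negative siRNA and 23.3 to 103 times with DNMT1 siRNA. The ranges did not overlap, and the wide DNMT1 siRNA ranges rest on the 1 to 4 reads of Hey1 per library. Hey1 passed the filter through the negative siRNA libraries alone, and its separation carries over into both ratios. The gap between the ranges is therefore not separate support for a difference.

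Nrarp (ENSMUSG00000078202, chromosome 2, 25180758 to 25183339) was scarce and variable. It had 5, 28 and 17 reads, or 2.9, 19.3 and 13.2 normalized counts, in the negative siRNA cultures. In the DNMT1 siRNA cultures it had 6, 9 and 6 reads, or 8, 13.1 and 9.8 normalized counts. All 3 of these lay inside the negative siRNA range, and the log2 fold change of -0.17 had a 95% interval of -1.65 to 1.31 (adjusted p = 0.889, edgeR quasi-likelihood test). A change of Nrarp of the size seen in Heyl could not be told from the spread between these cultures.

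The receptors Notch1 and Notch2 had narrow intervals around small values. Notch1 (ENSMUSG00000026923, chromosome 2, 26457903 to 26516663), the receptor of endocardium and endothelium, was counted at 1029.4, 1065.1 and 1378.7 normalized counts in the negative siRNA cultures and 1052.6, 1091.8 and 1131.8 in the DNMT1 siRNA cultures. Its log2 fold change was -0.08 (95% interval -0.35 to 0.18, adjusted p = 0.672, edgeR quasi-likelihood test). Replicate 3 alone stood out among the negative siRNA cultures of Notch1, and without it the value was 0.06. Notch2 (ENSMUSG00000027878, chromosome 3, 98013527 to 98150361), a receptor with a similar domain structure, was counted at 5253.1, 4491.2 and 5514.9 in the negative siRNA cultures and 4398.3, 4585.7 and 4615.4 in the DNMT1 siRNA cultures. The groups overlapped through negative siRNA replicate 2, and the log2 fold change was -0.17 (95% interval -0.36 to 0.03, adjusted p = 0.238, edgeR quasi-likelihood test). For 4 genes, Hes1, Notch1, Notch2 and Jag1, the interval lay inside the fold limit of 0.585 in both directions.

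Notch3 (ENSMUSG00000038146, chromosome 17, 32120820 to 32166852), the receptor of smooth muscle cells and pericytes, depended in its direction and its call on single negative siRNA cultures. It had 772, 2281.1 and 1247.3 normalized counts in negative siRNA replicates 1 to 3, and 1599.7, 1606.3 and 1653.5 with DNMT1 siRNA. Negative siRNA replicate 2 was above all DNMT1 siRNA cultures and the other two were below them. The log2 fold change was 0.18 (95% interval -0.56 to 0.91, adjusted p = 0.754, edgeR quasi-likelihood test). Without negative siRNA replicate 2, Notch3 was called as up-regulated (log2 fold change 0.69, SE 0.17, adjusted p = 0.0231, edgeR), and without negative siRNA replicate 1 the value was -0.12. The same culture was the highest of the 3 negative siRNA cultures for the smooth muscle genes Myh11, at 680.4 normalized counts against 119.6 and 178.9, and Cnn1, at 5324.6 against 1767.6 and 2215.5. It was the lowest of them for the pericyte gene Rgs5, at 37.9 against 127.8 and 52.1. For Pdgfrb it was about level with replicate 1, at 5860.9 against 5872.9 and 7317.5. For Cspg4, on the same marker list, it was the highest, at 3753.6 against 2576.4 and 3398.2. For Abcc9 it lay between the others, at 82.7 against 42 and 106.5. Summed over the 10 smooth muscle and pericyte markers, a list that includes Notch3, the level was 8169 CPM in that culture, 5500.8 to 5954.8 in the other two and 4638.7 to 4830.1 with DNMT1 siRNA, and the contractile genes Acta2 and Tagln made up most of it. The part of these markers in the Notch3 values was not tested.

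**Figure D3:**
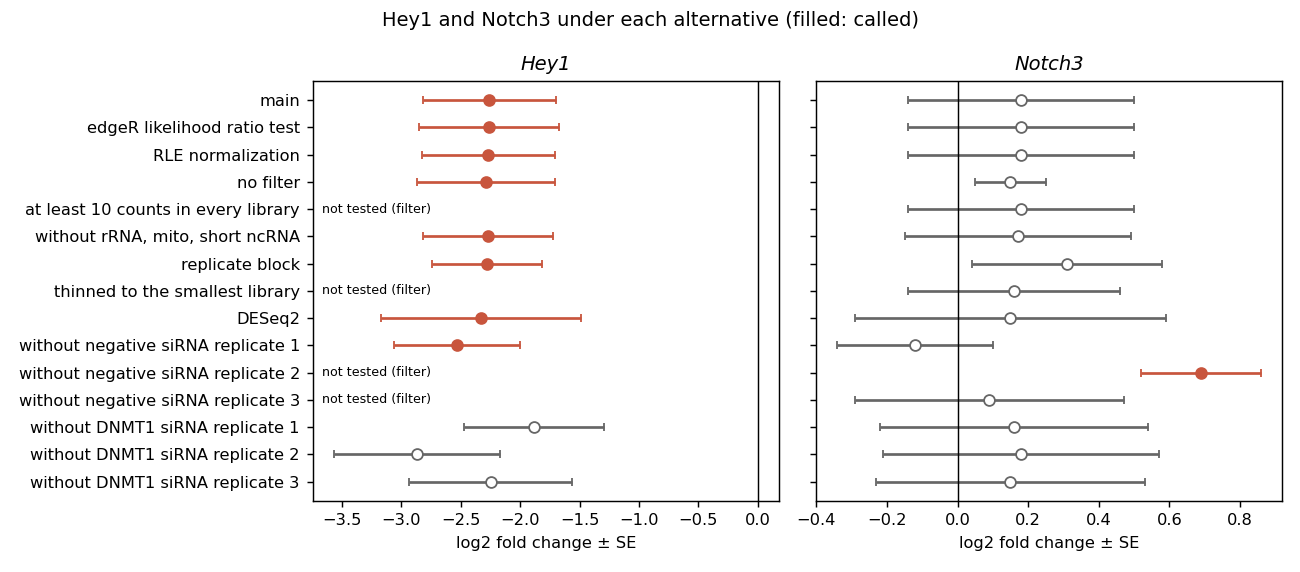
Log2 fold change (x axis, with SE) of Hey1 and Notch3 in the main test and under each alternative (y axis), filled where the gene passed both limits. Hey1 is called in 7 of the alternatives shown, falls short without any single DNMT1 siRNA culture and was removed by the filter in 4, and Notch3 is called only without negative siRNA replicate 2.

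Among the ligands, Jag1 was well measured and Dll4 was not. Jag1 (ENSMUSG00000027276, chromosome 2, 137081456 to 137116644) stood at 1427.4, 1199.5 and 1552.1 normalized counts in the negative siRNA cultures and at 1137.1, 1250.6 and 1221.7 in the DNMT1 siRNA cultures. DNMT1 siRNA replicate 1 was below the negative siRNA range of Jag1 and the other two were inside it, and the log2 fold change was -0.21 (95% interval -0.45 to 0.02, adjusted p = 0.214, edgeR quasi-likelihood test). Without negative siRNA replicate 2, where Jag1 and Notch2 were lowest, the adjusted p was 0.0219 for Jag1 and 0.0206 for Notch2, and the log2 fold changes of -0.31 and -0.25 stayed short of the fold limit. Dll4 (ENSMUSG00000027314, chromosome 2, 119325784 to 119335962), the ligand of endothelial cells, had 5, 21 and 18 reads with negative siRNA and 1, 6 and 2 reads with DNMT1 siRNA. These were 2.9, 14.5 and 14 normalized counts against 1.3, 8.7 and 3.3, and the groups overlapped because negative siRNA replicate 1 was low. Summed over the cultures, Dll4 with DNMT1 siRNA was at 44.6% of the negative siRNA level, with an exact 95% interval of 19.1 to 92.5% for counting error only, which leaves out the spread between cultures. Dll4 entered no test across genes.

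Hey1, Dll4 and Notch1 are known from endothelium, so their values were set beside 14 endothelial and endocardial markers. All 14 were tested, 4 rose and none fell past the limits (edgeR quasi-likelihood test), and their median log2 fold change was 0.85. Of all tested genes, 4.26% rose past the limits. The 4 were the natriuretic peptide receptor Npr3 (2.74), von Willebrand factor Vwf (1.48), Emcn (1.38) and the VEGF receptor Kdr (0.91). Not every marker was higher: the angiopoietin receptor Tek was lower without overlap but short of the fold limit (-0.35, adjusted p = 0.0373), and the endocardial factor Nfatc1 was at -0.11 (adjusted p = 0.535). Summed over the 14 markers, the level was 349.8 to 404.7 CPM with negative siRNA and 600.3 to 616.9 CPM with DNMT1 siRNA, and no marker was at 0. The endothelial cadherin Cdh5, not past the limits, stood at 215.9, 552.2 and 261.3 normalized counts in the negative siRNA cultures and at 653, 631.2 and 536.4 in the DNMT1 siRNA cultures. The largest rises in mean normalized count were those of Npr3 (333.3 to 2232), Eng (3851 to 5247) and Flt1 (1833 to 2431). Pecam1, Cdh5, Tie1, Egfl7, Esam and Nfatc1 overlapped between treatments. Hey1 was lower with DNMT1 siRNA and the sum was higher, and how they bear on each other was not tested. Notch1 and the endothelial receptor Notch4 (log2 fold change 0.2, adjusted p = 0.636, edgeR quasi-likelihood test) also overlapped between treatments. The highest negative siRNA culture was replicate 2 for Hey1, Dll4, Notch4 and Nrarp. Most of the 14 markers were also highest in replicate 2, namely Pecam1, Cdh5, Kdr, Flt1, Tie1, Emcn, Egfl7, Esam, Nfatc1, Vwf and Plvap. Replicate 3 was the highest for Notch1 (1378.7 normalized counts) and the marker Eng (4392), and replicate 1 for the markers Tek (724.2) and Npr3 (433.6). What this shared order means for Hey1 and Dll4 was not tested. Among 7 macrophage and blood markers, summed levels were 9.4 to 24.2 CPM with negative siRNA and 8.3 to 12.7 CPM with DNMT1 siRNA, and the globin genes Hbb-bt and Hba-a1 were at or near 0 in every library.

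**Figure D4:**
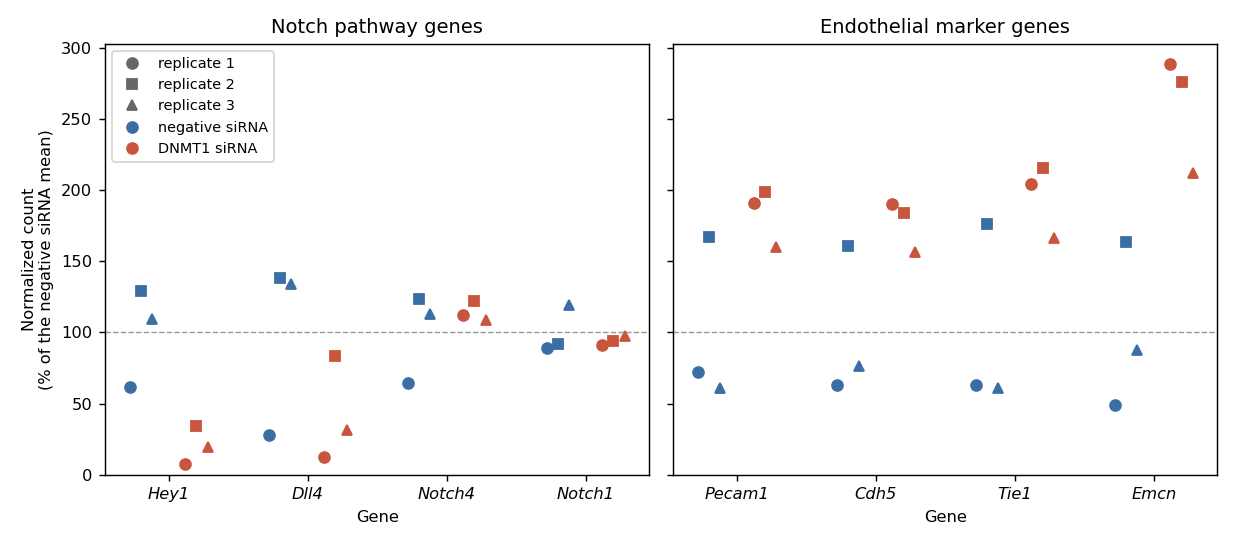
Normalized counts of Hey1, Dll4, Notch4 and Notch1 (left) and of 4 endothelial markers (right) in each culture, as a percentage of the negative siRNA mean of that gene (y axis, dashed line at 100), with colours for treatments and shapes for replicates. Hey1 is lower in the 3 DNMT1 siRNA cultures than in any negative siRNA culture, Emcn is higher in them, and Pecam1, Cdh5 and Tie1 overlap between treatments.

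Beyond the 10 genes, 53 other genes of the pathway were looked up, of which 47 passed the filter. None of the 47 was past both limits in the edgeR quasi-likelihood test, against 6.49% of all tested genes, and 11 had an unadjusted p below 0.05, beside 29.2% of all tested genes. DESeq2 called 1 of them, Numbl. Without the limit on fold change, 3 of the 47 had an adjusted p below 0.05, a smaller share than the 12.5% of all tested genes. Furin, the protease that cuts the receptor precursor, was higher with DNMT1 siRNA, at 8010 ± 225.8 against 6348 ± 454.3 normalized counts (SD, n = 3 each; log2 fold change 0.34, adjusted p = 0.0244, edgeR). Numbl, which encodes a relative of the Notch inhibitor Numb, was lower, at 1476 ± 37.35 against 2178 ± 375.4 (log2 fold change -0.56, adjusted p = 0.0218, edgeR), just inside the fold limit. Maml1, a Mastermind coactivator, was lower, at 1877 ± 33.69 against 2263 ± 152.7 (log2 fold change -0.27, adjusted p = 0.044, edgeR).

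By step of the pathway, values lay on both sides of 0 except for the HES-related genes, where both tested genes were below it. Of the other receptor and ligands with Dner, Mfap2 and Mfap5, 6 of 7 were tested, and Mfap2, a microfibril protein that binds Jagged ligands, had both the largest value (-0.51, adjusted p = 0.197) and the highest level. For the ligand Jag2 the log2 fold change was 0.43 (adjusted p = 0.208, edgeR). Among 5 genes that glycosylate the receptors, Mfng was furthest from 0 (0.56, 95% interval -0.96 to 2.07) and Poglut1 was the most abundant, at 11.55 CPM per kb with negative siRNA. Of 10 genes for cleavage, 7 had positive values, and the subunit of gamma-secretase Psenen was furthest from 0 (-0.59, adjusted p = 0.226, edgeR). Adam10, which cuts the ligand-bound receptor, was the most abundant of them at 82.49 CPM per kb, with a log2 fold change of 0.19. Of 12 genes for endocytosis and turnover, 11 were tested, with Numbl furthest from 0 and Dtx3 most abundant at 29.18 CPM per kb. The 13 genes of the nuclear complex were all tested, and Maml3 had the largest value, 0.42 (adjusted p = 0.16, edgeR), while the corepressor Ctbp1 was the most abundant at 46.74 CPM per kb. Rbpj itself had 617.9 ± 137.2 normalized counts in the negative siRNA cultures and 724.9 ± 61.24 in the DNMT1 siRNA cultures (SD, n = 3 each; adjusted p = 0.358, edgeR). Of 6 further HES-related genes, Hes6 (log2 fold change -0.11, 11.73 CPM per kb) and Hes7 (-0.36) were tested, and Hes2, Hes3, Hes5 and Helt were below the filter.

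**Figure D5:**
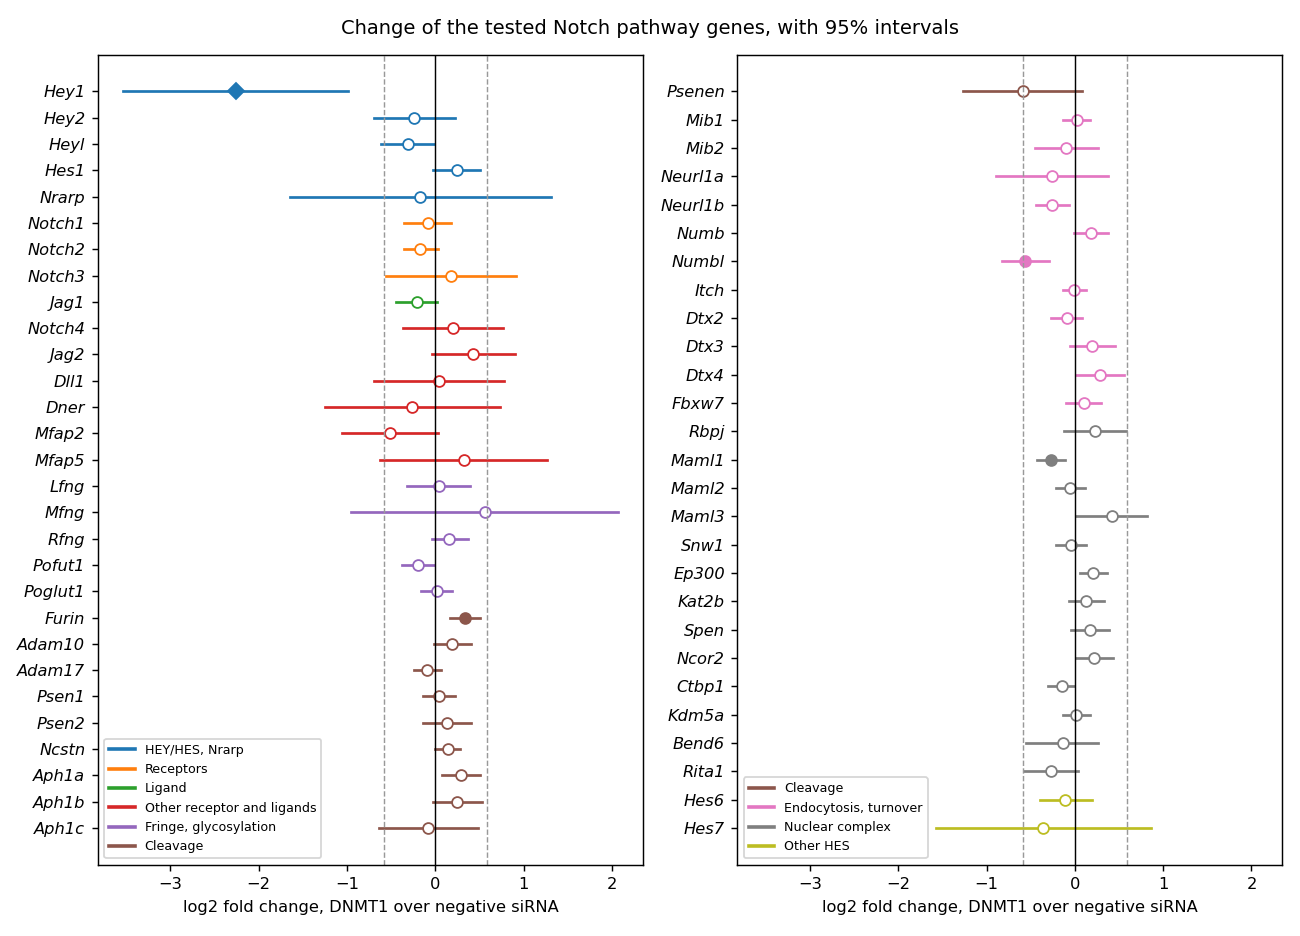
Log2 fold change of DNMT1 over negative siRNA (x axis) with its 95% interval for the 9 tested genes of the main list and the 47 tested other pathway genes, coloured by step of the pathway. Filled symbols have an adjusted p below 0.05, the diamond is past both limits and dashed lines mark the fold limit of 1.5. Hey1 lies at -2.26 and the other pathway genes lie between -0.59 and 0.56.

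Of 16 genes known to act downstream of Notch or to be repressed by HEY proteins in the heart, 15 were tested. Past the limits, 3 rose and 3 fell, beside 4.26% and 2.23% of all tested genes. The list was chosen with earlier results of these data known, so these shares do not test it. Nppa, Gja5 and Nrg1 rose. Gja5, which encodes connexin 40, stood at 19.3, 27.6 and 24.9 normalized counts in the negative siRNA cultures and at 52.3, 78.7 and 42.5 in the DNMT1 siRNA cultures (log2 fold change 1.28, adjusted p = 0.0292, edgeR). The ligand Nrg1, which endocardium sends to myocardium in trabeculation, was at 991.6 ± 133.2 normalized counts in the negative siRNA cultures and 1536 ± 17.63 in the DNMT1 siRNA cultures (SD, n = 3 each; log2 fold change 0.63, adjusted p = 0.00758, edgeR). All DNMT1 siRNA cultures were above the negative siRNA cultures in these genes. Tbx2, Snai1 and Pdgfrb fell. Tbx2, a T-box repressor of chamber genes that HEY proteins hold back in chamber myocardium, stood at 178, 257.8 and 229.4 normalized counts in the negative siRNA cultures and at 136.8, 121 and 129.2 in the DNMT1 siRNA cultures (log2 fold change -0.78, adjusted p = 0.0221, edgeR). The log2 fold changes of Snai1, a transcription factor of endocardial-to-mesenchymal transition, and of Pdgfrb, a receptor of mural cells, were both -0.62. Efnb2 (-0.13, adjusted p = 0.506), Myc (-0.16, adjusted p = 0.252) and Bmp2 (-0.66, adjusted p = 0.371) did not pass, and Bmp10 was below the filter. The median log2 fold change of the 15 was -0.06.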

How the data were processed

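Per the labels and the study's methods, reads were cleaned with FastQC, mapped to the mouse genome (mm10, GRCm38) with TopHat2 and counted per Ensembl gene with HTSeq. The authors deposited raw counts, 1 file per library, without normalization. Versions, strand setting and batches are not given in the sources used here. The 5 counter rows for unassigned reads stayed out of library sizes, and the row for reads in no feature was used as a library measure. Genes were named from GENCODE M21 (GRCm38), which holds 42462 of the 43629 genes and is newer than the authors' annotation; exon length is the union of its exons.

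Counts were fitted over all genes in R 4.3.3 with edgeR 4.0.16 (TMM, filterByExpr with minimum count 10 and minimum total count 15, quasi-likelihood F test, Benjamini-Hochberg adjustment over 15470 genes, no block). SE was derived from the fold change and its F statistic (log2 fold change over root F), and 95% intervals use its t quantile. Normalized counts are scaled to the geometric mean of the effective library sizes; CPM per kb divides CPM by exon length. Closeness of patterns was measured on log2 CPM (prior count 2). DESeq2 1.42.0 was an alternative, with other filters, normalization, thinned libraries, a replicate block and leaving out each library. The test was tried on simulated data. Replicate pairs differed by far more than sampling noise (chi-square per degree of freedom 2.82 to 61.6). Other assays of the study were not analysed here.

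The members, gene lists and tests were chosen with earlier results of these data known. Named genes are the 10 members, Dnmt1 and Dnmt3a, every gene past the limits in the lists of pathway genes and of genes downstream of Notch, and in each pathway list the tested gene with the largest change and the one with the highest level. Further genes, such as Rbpj, Jag2, Notch4, Hes7 and markers beside Notch3 and Hey1, were named after their values were seen. Of the fibroblast markers 3 of 8 fell past the limits, of the epicardial markers 1 of 6, and of the smooth muscle and pericyte markers 1 of 9 tested. Of all tested genes, 2.23% fell past them.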

Additional observations from a re-analysis of the deposited data

How the results depend on the processing

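Over all genes, 659 were up-regulated and 345 down-regulated, and these counts were 1054 and 874 with no limit on fold change and 994 and 701 with no filter. Deviations from the group means of same-numbered cultures correlated by -0.0208 to 0.0274, so the numbers were not taken as pairs; with the replicate block the counts were 513 and 285, and Hey1 was called (-2.28, adjusted p = 0.0367). When 1 library was left out, the up-regulated genes numbered 255 to 823 and the down-regulated genes 112 to 472, with at most 316 and 146 when it was 1 of the 3 DNMT1 siRNA libraries. Among the 10 genes, this gave 0 to 1 up-regulated (Notch3) and 0 to 1 down-regulated (Hey1), and among the 47 other pathway genes 0 up-regulated and 0 to 1 down-regulated (Numbl, without negative siRNA replicate 1). The down-regulated Notch genes numbered 0 with at least 10 counts in every library and 0 when libraries were thinned, in both cases because Hey1 was no longer tested. Of the other pathway genes, 1 was up-regulated and 2 were down-regulated with no limit on fold change, and Numbl made up the 1 down-regulated gene with no filter and with DESeq2. The log2 fold change of Notch3 ran from -0.12 without negative siRNA replicate 1 to 0.69 without negative siRNA replicate 2, and that of Notch1 from -0.16 without negative siRNA replicate 1 to 0.06 without negative siRNA replicate 3; the cause was not tested. The difference between the treatments in the share of reads in no gene, 12.9 percentage points, was 11.5 to 15.3 when 1 library was left out. Hey1, Nrarp and Dll4 are limited by their few reads.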

Other observations

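The 10 genes varied more between the negative siRNA cultures than between the DNMT1 siRNA cultures in 9 of 10 cases, although the negative siRNA libraries were the deeper ones. The SD of log2 CPM was 0.78 for Notch3 in the negative siRNA cultures and 0.03 in the DNMT1 siRNA cultures, and 1.13 and 0.3 for Nrarp. Hey1 was the exception, with 0.5 and 0.63. Over all tested genes, the median SD was 0.17 and 0.1 in the same order, so the larger spread was not particular to these 10 genes. The share of all tested genes that varied more between the negative siRNA cultures was not counted. The difference in spread was not tested.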
